A study of Mus musculus with 2 samples.

Results

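The genes described here encode the enzymes and carriers that break down fatty acids in mitochondria and in peroxisomes. They were 33 genes of 43346 Ensembl genes in the deposited tables, taken from a list of named enzymes. Of these, 20 are counted as mitochondrial, 10 act in peroxisomes, and Ech1, Eci2 and Crat have products in both organelles. The 20 include Cpt1c, whose product sits in the endoplasmic reticulum and which is grouped here with the mitochondrial entry step. All 33 were matched to a single Ensembl identifier.

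The RNA came from the gonadal fat pad, the white fat depot next to the gonads, of C57BL/6J mice aged 8 weeks. Polyadenylated RNA longer than 200 nt was read in strand-specific pairs of 76 nt. The study held 2 libraries of a single group with no treatment, no genotype contrast and no control, and the labels number them biological replicates 1 and 2. The mice were littermates of mixed sex by the labels, both libraries carry the same donor identifier, and how many mice stand behind each is not given, so the spread between them may be partly technical. Xist, the RNA of the inactive X chromosome of females, was at 0.030 TPM in replicate 1 and listed at 0 in replicate 2, and the Y-linked Ddx3y was at 6.70 and 6.73 TPM, which goes against a pool of both sexes.

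Fatty acids are oxidised in cycles of dehydrogenation, hydration, renewed dehydrogenation and thiolysis, each of which shortens the acyl-CoA and frees acetyl-CoA. In mitochondria long-chain acyl groups enter through the carnitine shuttle, whose CPT1 step is inhibited by malonyl-CoA, the building block of fatty acid synthesis. Peroxisomes begin the breakdown of very-long-chain and branched fatty acids with oxidases that make hydrogen peroxide, and hand shortened chains on to mitochondria. White fat mainly stores and releases fatty acids, and brown fat and liver are the tissues best known for high rates of oxidation.

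Levels are given as TPM, an abundance per transcript length scaled to a fixed total in each library, for replicate 1 and then replicate 2. A gene counted as expressed if neither library fell under 1 TPM. Genes held 47106979 and 54129473 expected counts, which are estimated fragments. Of all Ensembl genes 33% were expressed. By this rule 32 of the 33 genes were expressed, all but Acox2, and 29 had at least 10 TPM in each library. That was 87.9% of all 33, with unexpressed Acox2 counted, and the share among expressed genes alone was 54.4%. The lowest expected count of any of them was 71 and the highest 24538, so counting error was widest for Acox2. The deposited tables also give an interval for each TPM, which covers estimation within a library and not the spread between samples. With 2 libraries of 1 group there is no test between conditions, and differences between the libraries are described only.

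Several sequences bear on how these values can be read. The mitochondrial trifunctional protein, which carries out the last steps of the cycle on long chains, has an alpha subunit encoded by Hadha and a beta subunit encoded by Hadhb. The genes are divergent neighbours on chromosome 5. Hadha lies on the minus strand at chr5:30118304-30155162 and Hadhb on the plus strand at chr5:30155248-30184593 (mm10, GENCODE M21). The 85 bases between them, chr5:30155163-30155247 on the plus strand (mm10, cut from the RefSeq promoter of Hadhb), are shown because a single short interval separates both subunit genes. The interval depends on the annotation, since by RefSeq the starts of both genes lie 273 bases apart. Capitals mark GGGCGG, the GC box.
Hadha-Hadhb interval: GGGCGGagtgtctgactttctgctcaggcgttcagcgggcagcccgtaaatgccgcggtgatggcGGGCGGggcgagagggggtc

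Acaa1a and Acaa1b encode the peroxisomal 3-ketoacyl-CoA thiolases, which cleave the shortened chain, and lie at chr9:119339676-119350299 and chr9:119148023-119157093. Their coding sequences of 1272 bases differ at 44 positions and are 96.5% identical, with a longest shared run of 327 bases. Of all 1614 windows of 76 bases in the main Acaa1b transcript, 28.3% also occur in that of Acaa1a, so single reads from these stretches cannot tell the genes apart and the division of fragments between them is uncertain. Coding bases 460 to 549, the stretch of 90 bases with the most differences, are shown with the 13 differing bases in capitals, because reads here do tell the genes apart.
Acaa1a: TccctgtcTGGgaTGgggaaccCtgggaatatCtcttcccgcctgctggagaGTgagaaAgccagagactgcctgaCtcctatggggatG
Acaa1b: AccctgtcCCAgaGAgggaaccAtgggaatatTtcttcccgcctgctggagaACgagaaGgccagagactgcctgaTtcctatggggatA

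**Figure D1:**
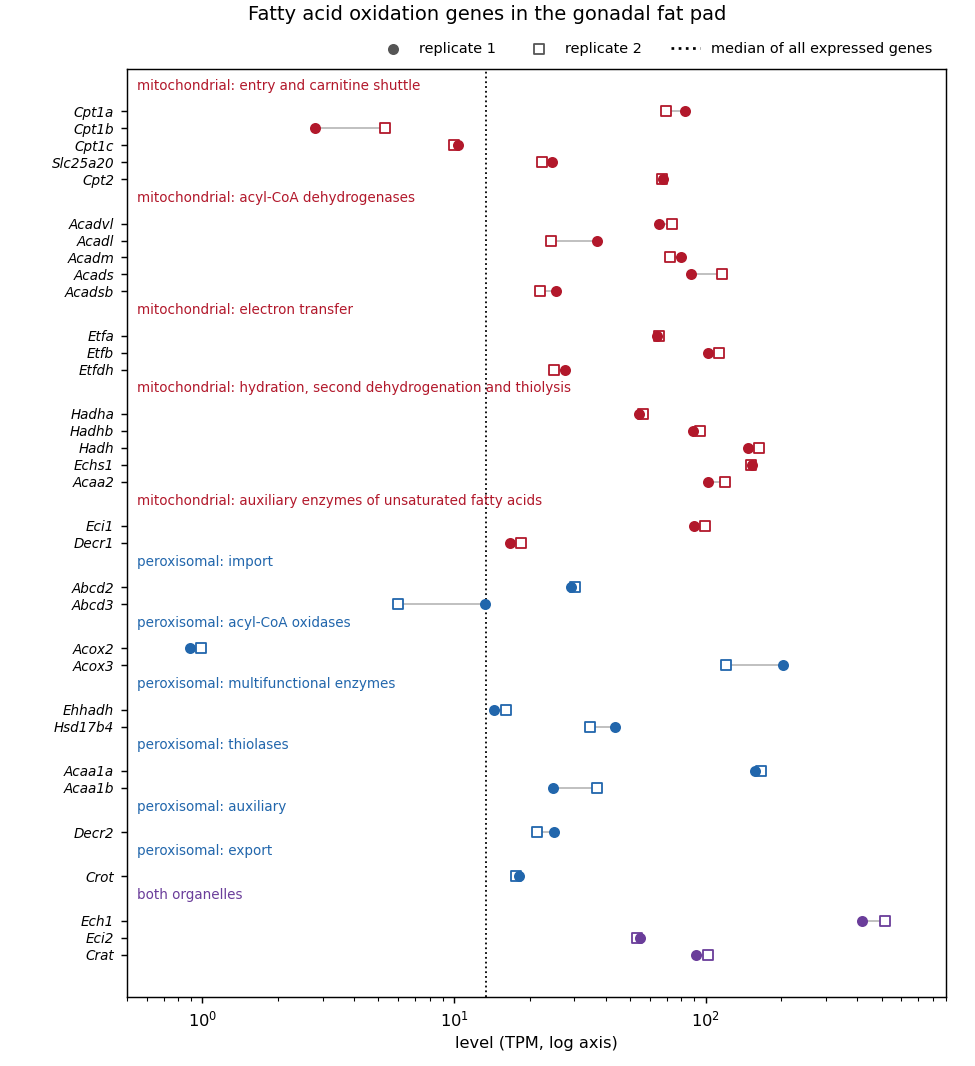
Level of each of the 33 genes in TPM (log axis) by compartment and step, with filled circles for replicate 1, open squares for replicate 2 and a dotted line at the median of all expressed genes. Ech1 stood highest at 416.8 and 515.5 TPM and Acox2 lowest at 0.89 and 0.99 TPM.

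Most mitochondrial genes stood well above the typical expressed gene. All 20 were expressed. Their median was 66.6 and 68.3 TPM, against 14.2 and 12.7 TPM over all 14303 expressed genes. They ranged between Cpt1b at 2.79 and 5.31 TPM and Echs1 and Hadh, whose highest value was 163.0 TPM. Only the carnitine shuttle held members under 15 TPM in both libraries.

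At the entry step, the liver form of carnitine palmitoyltransferase 1 was by far the highest of the 3 forms. Cpt1a, which encodes it and commits long-chain fatty acids to oxidation, was at 82.7 and 69.7 TPM (chr19:3322334-3385733). Cpt1c, the brain form, which sits in the endoplasmic reticulum, was at 10.3 and 9.96 TPM. Cpt1b, the muscle form, was at 2.79 and 5.31 TPM. Cpt1a was therefore 29.6 and 13.1 times as high as Cpt1b and 8.02 and 6.998 times as high as Cpt1c, in the same order in both libraries and with no overlap between the 3 genes. Later annotation places a further gene, Gm44502, over 2744 exon bases of Cpt1b on the same strand, and it was not analysed here.

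The remaining steps of the shuttle differed in level from one another but hardly between libraries. Cpt2, which remakes acyl-CoA on the matrix side, was at 67.9 and 67.0 TPM, close to Cpt1a, with Cpt1a over Cpt2 at 1.22 and 1.04. Slc25a20, the carrier that exchanges acylcarnitine for carnitine across the inner membrane, was at 24.6 and 22.5 TPM, which was 0.297 and 0.322 of the Cpt1a level. Crat, which moves acetyl and short acyl groups onto carnitine in both organelles, was at 91.7 and 102.0 TPM.

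Of the dehydrogenases that open each cycle, the short-chain form was highest in both libraries. Acads, for short chains, was at 87.7 and 116.4 TPM, with deposited intervals of 84.4 to 89.99 and 113.0 to 118.4 that did not overlap. Acadm, for medium chains, was at 79.5 and 71.9 TPM. Acadvl, the membrane-bound enzyme for very long chains, was at 65.3 and 73.5 TPM. The long-chain and branched short-chain forms stood lower: Acadl was at 36.8 and 24.3 TPM and Acadsb at 25.4 and 22.0 TPM. The place of Acads above Acadm held in both libraries, while Acadm and Acadvl changed places by gene TPM. By protein-coding transcripts alone, Acadm was higher in both, at 59.1 and 51.8 TPM against 43.1 and 41.5 TPM for Acadvl.

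The dehydrogenases pass electrons to the electron transfer flavoprotein, and its dehydrogenase passes them to ubiquinone. Etfb, the beta subunit, was at 102.4 and 113.0 TPM, and Etfa, the alpha subunit that pairs with it, was at 64.3 and 65.5 TPM. Etfdh, the membrane dehydrogenase, was at 27.7 and 25.01 TPM. The order Etfb, Etfa, Etfdh was the same in both libraries, with Etfa at 0.628 and 0.580 of Etfb and Etfdh at 0.270 and 0.221 of it. A later annotated gene, Gm45233, shares 617 exon bases with Etfb on its strand and was not analysed here.

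The enzymes of the inner cycle formed the highest group in mitochondria, with a median of 101.9 and 119.7 TPM over 5 genes. Echs1, the short-chain enoyl-CoA hydratase, was at 153.5 and 151.4 TPM. Hadh, the 3-hydroxyacyl-CoA dehydrogenase for medium and short chains, was at 147.0 and 163.0 TPM. These gene values crossed between libraries, so by gene TPM neither stood above the other in both. By protein-coding transcripts alone, Hadh was higher in both, at 146.6 and 162.6 TPM against 110.3 and 113.7 TPM for Echs1. Acaa2, the mitochondrial thiolase, was at 101.9 and 119.7 TPM. The trifunctional protein genes stood lower, with Hadhb at 89.1 and 95.1 TPM and Hadha at 54.3 and 56.5 TPM, so that Hadha was at 0.609 and 0.594 of Hadhb.

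Among enzymes that prepare unsaturated chains for the cycle, the isomerase was far above the reductase. Eci1, the mitochondrial enoyl-CoA isomerase, was at 90.01 and 99.8 TPM. Decr1, the mitochondrial dienoyl-CoA reductase, was at 16.7 and 18.4 TPM. Ech1, a dienoyl-CoA isomerase of both organelles (chr7:28825217-28832247), was at 416.8 and 515.5 TPM and stood at rank 306 and 242 among expressed genes. It was 2.84 and 3.16 times as high as Hadh, and no other gene of the set came near it in either library. Eci2, a further isomerase of both organelles, was at 54.8 and 53.4 TPM.

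The peroxisomal genes had a lower median and a wider spread. Of the 10, 9 were expressed, and the median of all 10 was 24.9 and 25.9 TPM. Acox3 and Acaa1a stood above 120 TPM in both libraries, no other gene of the 10 reached 45 TPM in either, and Acox2 stayed under 1 TPM. The mitochondrial and peroxisomal medians were not compared by a test, since genes are not replicates of an organelle.

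The peroxisomal membrane carriers differed in how closely the libraries matched. Abcd2, an importer of very-long-chain and polyunsaturated acyl-CoA, was at 29.1 and 30.4 TPM. Abcd3, the abundant peroxisomal membrane protein PMP70, which imports branched and dicarboxylic acyl-CoA, was at 13.3 and 5.99 TPM (chr3:121758774-121815302). Abcd2 was the higher of the pair in both libraries, by 2.18 and 5.07 times.

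The oxidases lay at opposite ends of the set. Acox3, an oxidase of branched-chain acyl-CoA such as pristanoyl-CoA, was at 203.6 and 120.4 TPM (chr5:35583040-35615352), from 21189 and 17482 expected counts. Acox2, the oxidase of branched chains and bile acid precursors best known in liver, was at 0.89 and 0.99 TPM from 71 and 73 counts. In replicate 1 the Acox2 value lay below its own deposited interval of 1.04 to 2.21 TPM, the only such case among the 33 genes, and its posterior mean TPM of 1.59 and 1.51 would put it above the threshold.

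In the middle of the peroxisomal cycle, the multifunctional enzymes were moderate. Hsd17b4, the D-bifunctional protein needed for branched and very long chains, was at 43.7 and 34.9 TPM. Ehhadh, the L-bifunctional protein, was at 14.4 and 16.1 TPM. Hsd17b4 was 3.05 and 2.17 times as high as Ehhadh.

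The thiolase pair shown above was led by Acaa1a in both libraries. Acaa1a was at 157.4 and 166.6 TPM and Acaa1b at 24.6 and 37.0 TPM, so Acaa1a was 6.39 and 4.51 times as high. By the deposited intervals Acaa1b was lower in replicate 1, at 22.9 to 25.99 TPM, than in replicate 2, at 34.9 to 38.5 TPM, but these intervals rest on the authors' division of shared reads. Decr2, the peroxisomal dienoyl-CoA reductase, was at 25.1 and 21.4 TPM. Crot, which puts medium-chain products on carnitine for export, was at 18.2 and 17.6 TPM.

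In the order of mean level, the values of neighbouring genes overlapped for 20 of 32 pairs. Ech1 lay above Acox3 in both libraries with no overlap, while Acox3 and Acaa1a, Acaa1a and Hadh, and Hadh and Echs1 each overlapped. Steps without overlap also lay between Echs1 and Acaa2, Hadhb and Cpt1a, Cpt2 and Etfa, Etfa and Hadha, and Eci2 and Hsd17b4. Lower down they lay between Abcd2 and Etfdh, Decr2 and Crot, Decr1 and Ehhadh, and Ehhadh and Cpt1c. At the low end Abcd3, Cpt1b and Acox2 followed each other without overlap. This order is by gene TPM. By protein-coding transcripts alone, Echs1, at 110.3 and 113.7 TPM, overlapped Acaa2, at 101.9 and 119.7 TPM, and lay below Hadh. On that scale Hadhb, at 47.9 and 72.8 TPM, also overlapped Cpt1a, at 82.7 and 69.7 TPM. With 2 libraries such a step is a description and not a test.

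Part of the gene level came from transcripts that carry no annotated protein. The gene TPM is the sum over its transcripts, and a short transcript needs few fragments to reach a high TPM. Protein-coding transcripts, by GENCODE M21 biotype, carried over 95% of the TPM in both libraries for 16 genes, among them Cpt1a, Acaa2, Hadh, Etfb, Eci1 and Abcd2. They carried under 80% in both for 7 genes.

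Acadl had the lowest mean coding share. Its coding transcript Acadl-201 was at 18.8 and 13.3 TPM, and the short processed transcript Acadl-202 at 18 and 11.01 TPM from only 290.3 and 217.5 fragments. The coding share of Acadl was 51.1% and 54.7% of TPM but 80.4% and 82.8% of fragments. Retained-intron forms carried much of Acadvl and Hadha in the same way. Acadvl-203 was at 12.9 and 20.2 TPM, and together with the gene's other non-coding forms it left a coding share of 66.0% and 56.4%. Hadha-202 was at 12.1 and 18 TPM, and with the other non-coding forms of Hadha it left a coding share of 69.4% and 63.6%. Echs1-202, a processed transcript of 373 nt, was at 40.2 and 34.8 TPM, and the coding level of Echs1 was 110.3 and 113.7 TPM. The retained-intron form Acadm-203 was at 12.9 and 14.2 TPM. For Acadm the coding share was 74.4% and 72.1%, and Acaa1a was the last of the 7.

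Hadhb differed in makeup between the libraries more than in gene TPM. The retained-intron form Hadhb-208 was at 40.8 TPM in replicate 1 and 22.0 TPM in replicate 2, and the coding form Hadhb-201 was at 25.8 and 56.1 TPM. A further coding form, Hadhb-203, was at 22.0 and 16.5 TPM. Summed coding TPM of Hadhb was 47.9 and 72.8, so it was 1.52 times as high in replicate 2, although the gene TPM differed by only 1.07 times. In fragments Hadhb had 3722 and 6446, a quotient of 1.73, where whole libraries differed by 1.15. The pseudogene Gm13910, 99.8% identical to Hadhb over 1428 nt, held 124.9 and 200.0 fragments, so a small part of the reads may be shared. On the coding scale Hadha was at 0.787 and 0.494 of Hadhb, while the quotients of gene TPM lay close to each other.

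Several genes had more than a single coding transcript. Acox3-202 was at 118.8 and 82.2 TPM and Acox3-201 at 24.9 and 15.04 TPM, and the retained-intron form Acox3-206 was at 44.7 and 15.6 TPM. Cpt2-201 was at 48.8 and 49.8 TPM and the shorter Cpt2-203 at 18.3 and 16.3 TPM. Eci2 was the most divided, with Eci2-211 at 17.0 and 20.9 TPM, Eci2-207 at 8.43 and 6.55 TPM and Eci2-201 at 6.56 and 6.57 TPM. Crat-201 was at 57.6 and 58.1 TPM, and Crat-211, of 397 nt, at 12.3 and 21.9 TPM from 82.8 and 176.3 fragments. These transcripts share exons, so their levels are estimates whose split between forms is uncertain.

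**Figure D2:**
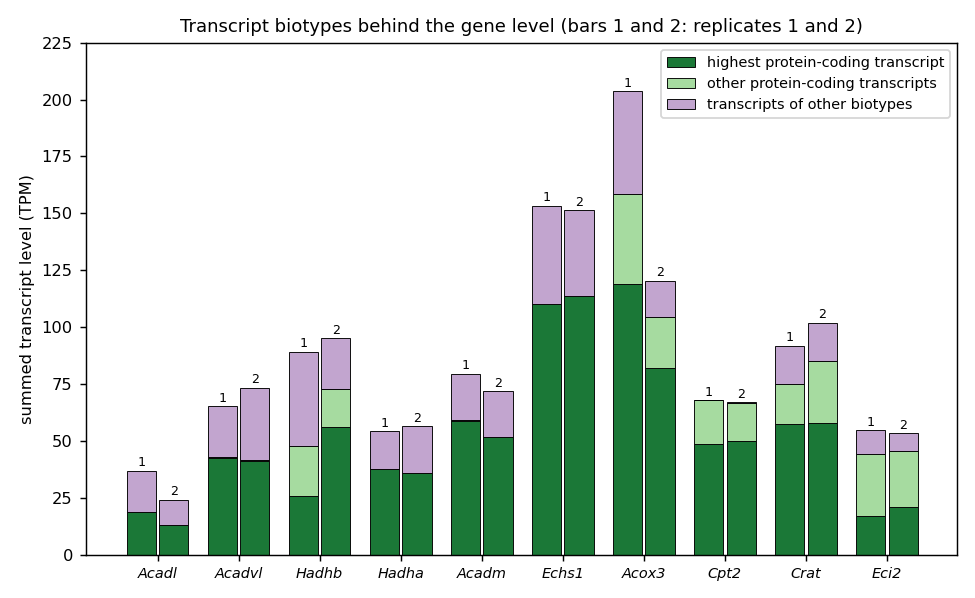
Summed transcript level in TPM of the 10 genes with the lowest coding share or with several coding transcripts, with bars 1 and 2 for replicates 1 and 2 and colours for the highest coding transcript, other coding transcripts and other biotypes. Hadhb has a coding level of 47.9 TPM in replicate 1 and 72.8 TPM in replicate 2 under nearly equal bars.

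A gene was counted as apart when its TPM quotient, with no pseudocount, passed 1.5 in either direction and its mean expected count was 20 or more, which all 33 met. Only 4 of the 33 were apart, where 23.3% of 16920 such genes were. Acox3, Acadl and Abcd3 were higher in replicate 1, where 17.1% of all genes were, and Cpt1b was higher in replicate 2, where 6.15% of all genes were. Past 2-fold, Abcd3 was alone, where 7.77% of genes passed in either direction, 5.3% of them higher in replicate 1 and 2.47% higher in replicate 2, each as a share of all such genes. The deposited intervals of the libraries overlapped for 17 genes and not for 16, and over all genes with that mean count they did not overlap for 48.1%, so the members lay near that share.

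Abcd3 showed the widest difference by TPM, and Cpt1b by TMM-scaled counts. Abcd3 was at 13.3 TPM in replicate 1, with an interval of 12.5 to 13.8, and at 5.99 TPM in replicate 2, with an interval of 5.55 to 6.33, a quotient of 2.23. It rests on a single transcript and on 1582 and 883 fragments, and on counts scaled by TMM, a method that balances library makeup, the quotient was 1.99. Acox3 was 1.69 times as high in replicate 1 by TPM, 1.52 times by coding transcripts and 1.35 times by TMM-scaled counts. Acadl was 1.52 times as high in replicate 1 by TPM, 1.42 times by coding transcripts and 1.31 times by TMM-scaled counts. Cpt1b was 1.90 times as high in replicate 2 by TPM and 2.17 times by TMM-scaled counts. Acaa1b stood on the limit itself, 1.5 times as high in replicate 2 by TPM and 1.62 times by TMM-scaled counts.

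On TMM-scaled counts 4 genes were again apart, where 18.6% of all such genes were, but not the same 4. Cpt1b and Abcd3 were apart on both scales, Hadhb and Acaa1b joined them, and Acox3 and Acadl left. Hadhb was 1.56 times as high in replicate 2 on that scale.

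By their medians, the genes leaned slightly to replicate 2 relative to all genes. The median log2 quotient of TPM plus 1, replicate 1 over replicate 2, was -0.04 for mitochondrial genes and 0.05 for the expressed peroxisomal genes, against 0.12 for all 14875 genes whose mean reached 1 TPM. On TMM-scaled counts these medians were -0.16, -0.12 and -0.01. The scale thus moved for all genes together, and the mitochondrial genes lay below the median of all genes on both. By TPM, 14 of 20 mitochondrial and 6 of 10 peroxisomal genes lay below the median of all genes. Sums differed from medians for the peroxisomal genes, which summed to 530.2 and 451.2 TPM, or 0.101% and 0.0919% of gene fragments. The mitochondrial genes summed to 1329.9 and 1389.8 TPM, or 0.166% and 0.185%. The 5 inner-cycle genes were all higher in replicate 2 by TMM-scaled counts and 4 of 5 by TPM, with Echs1 at about equal levels. That direction was not particular to this step. By TMM-scaled counts 25 members were higher in replicate 2 and 8 in replicate 1, and by TPM 18 and 15. By protein-coding transcripts Hadha was higher in replicate 1, at 37.7 and 35.9 TPM, and the other inner-cycle genes in replicate 2. The share of all genes higher in replicate 2 is not given here. Ech1 was 1.24 times as high in replicate 2 by TPM and 1.38 times by TMM-scaled counts.

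**Figure D3:**
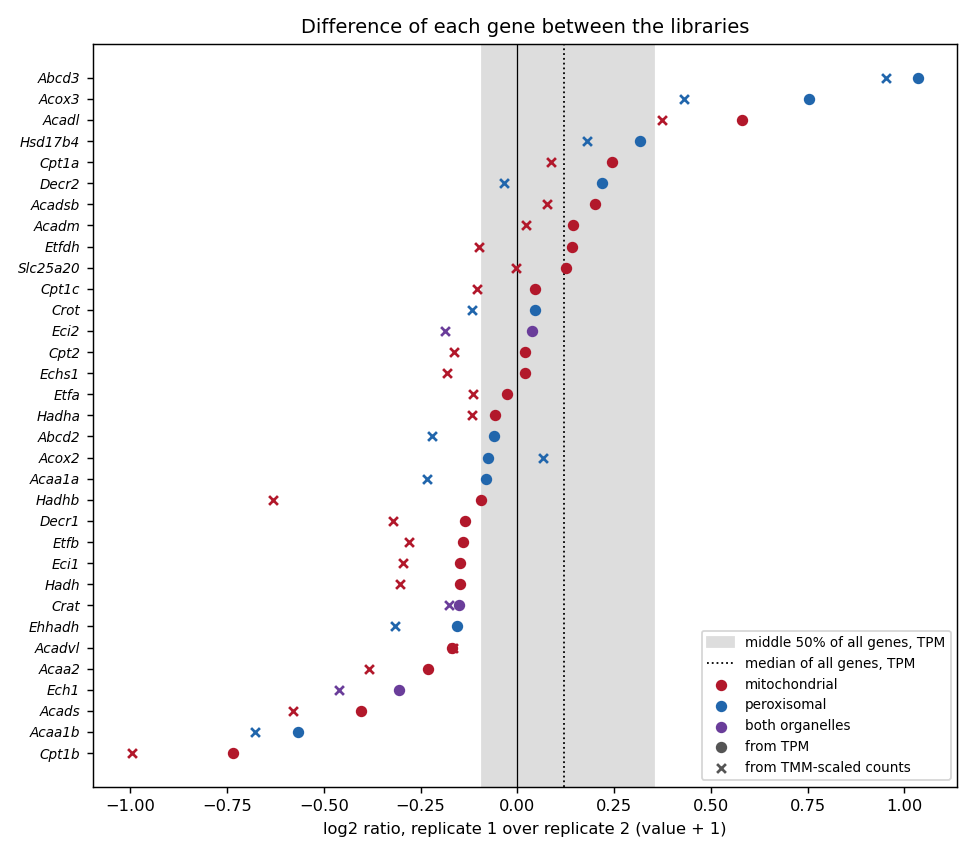
Log2 quotient of replicate 1 over replicate 2 for each gene, with circles for TPM, crosses for TMM-scaled counts, a grey band for the middle 50% of all genes by TPM and a dotted line at their median of 0.12. Abcd3, Acox3 and Acadl lie to the right of the band, and Cpt1b and Acaa1b lie farthest to the left.

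Markers of other cell types also differed between the libraries, and in bulk RNA fewer cells of a type cannot be told apart from less RNA per cell. All 10 adipocyte markers were expressed, but so were all 10 markers of the epididymal epithelium, the lining of the duct where sperm mature. Summed over the list, epididymal markers had 33748 TPM (replicate 1) and 22552 TPM (replicate 2), or 2.25% and 1.68% of gene fragments. Of these, 8 were higher in replicate 1 by TPM, and Crisp1, at 1453 and 2545 TPM, was higher in replicate 2. Adipocyte markers summed to 19783 and 19925 TPM, or 1.82% and 2.18% of fragments, and split evenly by TPM, with 5 higher in each library. Cfd, at 6724 and 3717 TPM, was higher in replicate 1, and Lep, at 92.1 and 574.8 TPM, in replicate 2. No marker of either list was at 0. Acox3, Acadl and Abcd3 differed in the same direction as the epididymal sum, in TPM and in share of fragments. The sums of hepatocyte markers, at 267.9 and 68.5 TPM, and testis germ cell markers, at 529.9 and 346.9 TPM, also had that direction. Acaa1b, Hadhb and Ech1 differed in that of the adipocyte share of fragments, while the adipocyte sum of TPM was about equal. The macrophage share of fragments, at 0.0511% and 0.0600%, and the skeletal muscle share were higher in replicate 2 as well. Neither direction was thus particular to a single list, and the part of any of these cells in those differences was not tested.

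Cpt1b was higher in replicate 2, as were the summed TPM of muscle and brown fat markers. Skeletal muscle markers summed to 96.2 and 134.6 TPM, with 3 of 6 expressed and Myh4, a fast myosin, at 0.020 and 0.21 TPM. Brown adipocyte markers summed to 28.6 and 57.2 TPM, with 4 of 7 expressed and Ucp1 at 0.21 and 0.45 TPM. As shares of gene fragments, muscle markers held 0.00897% and 0.0133% and brown fat markers 0.00392% and 0.00364%, where Prdm16, with 1564 and 1241 fragments, made up most of the brown fat sum. Prdm16 was at 7.57 and 5.58 TPM, and the other 6 brown fat markers were higher in replicate 2 by TPM and by TMM-scaled counts. Their part in the Cpt1b difference was not tested. Testis germ cell markers, 5 of 5 expressed, summed to 529.9 and 346.9 TPM, and macrophage markers, 5 of 5 expressed, to 476.5 and 566.1 TPM.

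Genes of carnitine supply and malonyl-CoA control had lower medians than the enzymes. For carnitine supply, with 6 of 7 measured genes expressed, the median was 7.11 and 12.7 TPM. Slc22a5, the carnitine importer of the plasma membrane, was at 33.9 and 44.6 TPM, and Bbox1, which makes the last step of carnitine synthesis, at 1.30 and 0.98 TPM. Shmt2 led that list at 84.9 and 52.0 TPM and Aldh9a1 followed at 23.1 and 20.3 TPM. Tmlhe, also listed, was not analysed here. Malonyl-CoA control, with all 8 genes expressed, had its median at 17.5 and 18.9 TPM. Acaca, the cytosolic acetyl-CoA carboxylase of fat synthesis, was at 78.5 and 98.7 TPM, and Acacb, the form at the mitochondrial surface whose malonyl-CoA restrains CPT1, at 12.4 and 14.2 TPM. Mlycd, which removes malonyl-CoA, was at 22.5 and 23.5 TPM, above Acacb in both libraries. Of the AMP-activated kinase subunits, Prkab1 was at 63.6 and 74.0 TPM and Prkag1 at 63.3 and 68.5 TPM. Prkab2 and the catalytic subunit genes were lower, with Prkab2 at 8.05 and 8.92 TPM, Prkaa1 at 7.17 and 5.97 TPM and Prkaa2 at 1.53 and 1.71 TPM.

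Among regulators of these genes the median was 35.2 and 33.4 TPM, and 11 of 12 passed the threshold. The corepressor gene Ncor1 was at 90.3 and 74.6 TPM, Pparg, the master regulator of fat cells, at 67.3 and 88.5 TPM, and the partner receptor Rxra at 65.7 and 62.3 TPM. Ppara, the receptor that drives fatty acid oxidation in liver, was at 3.14 and 2.76 TPM, far below Ppard at 34.5 and 30.5 TPM. The coactivator genes were low, with Ppargc1a at 2.12 and 2.01 TPM while Ppargc1b had 1.71 and 0.77 TPM.

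Related enzymes of both organelles were expressed throughout. For the 15 other mitochondrial acyl-CoA enzymes, all expressed, the median was 36.8 and 37.8 TPM. The highest were Pccb of propionate breakdown at 111.5 and 114.8 TPM, Ivd of leucine breakdown at 87.4 and 103.6 TPM and Hsd17b10 at 65.8 and 73.3 TPM. For the 13 other peroxisomal lipid enzymes, all expressed, it was 18.9 and 15.4 TPM. The sterol carrier and thiolase gene Scp2 stood first at 370.2 and 414.3 TPM. Cat, the catalase that removes hydrogen peroxide, was at 161.6 and 155.5 TPM, and Gnpat of ether lipid synthesis at 86.9 and 98.9 TPM. Peroxisome assembly, with all 16 genes expressed, had its median at 25.2 and 21.7 TPM. Its highest genes were Pex19 at 93.4 and 155.0 TPM, Pex16 at 78.9 and 138.6 TPM and Pex5, the import receptor, at 46.3 and 46.8 TPM. The peroxisomal members' median of 24.9 and 25.9 TPM lay close to that of the assembly genes.

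Genes that track mitochondrial content, all 12 expressed, had their median at 139.4 and 127.6 TPM. Atp5a1, a subunit of ATP synthase, was at 953.1 and 981.5 TPM, and Mdh2, the mitochondrial malate dehydrogenase, at 394.8 and 428.0 TPM. That median was above the mitochondrial oxidation median in both libraries. Of the ketone body genes, Acat1, which is also among the acyl-CoA enzymes, was at 36.8 and 37.8 TPM, and Oxct1, which uses ketone bodies, at 33.5 and 33.8 TPM.

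**Figure D4:**
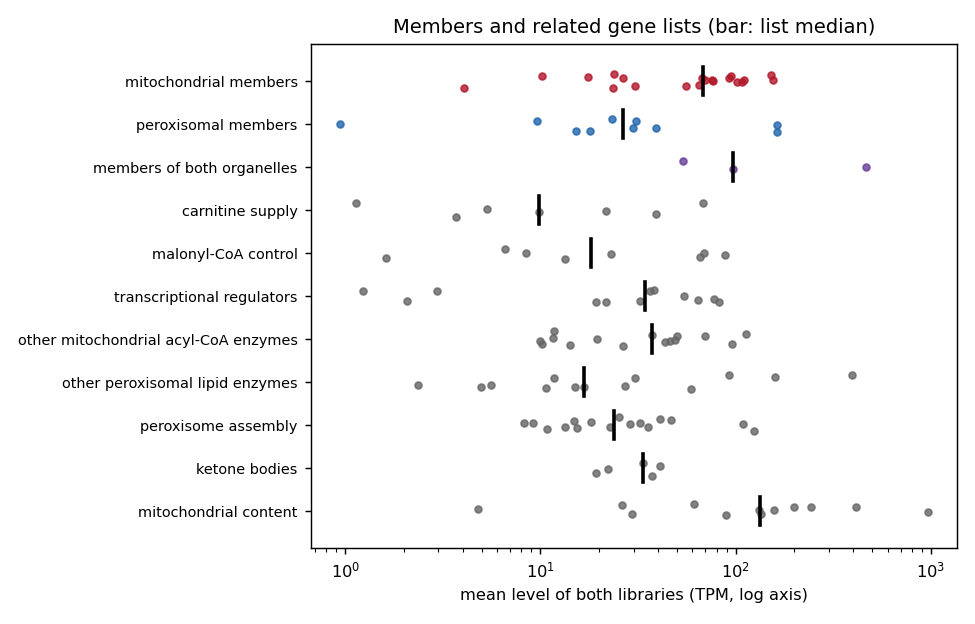
Mean level of both libraries in TPM (log axis) for each gene of the mitochondrial, peroxisomal and shared sets and of 8 related lists, with a bar at each list's median. The median of the mitochondrial oxidation genes lies below that of the mitochondrial content list, which was 139.4 and 127.6 TPM, and above that of the peroxisomal oxidation genes, while the genes of these sets overlap.

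RefSeq promoters on GRCm38, from 250 bases before to 50 after the start, were found for 27 of the 33 genes, 29 promoters in all. Cpt1b, Abcd2, Acaa2, Hsd17b4, Decr1 and Crat had no entry. The receptors of the PPAR family bind a direct repeat of AGGTCA with 1 base between the copies, called DR1. No member promoter held it exactly on either strand, and 13 of all 32851 promoters did. With up to 2 mismatches in the 12 fixed bases, 4 of 29 member promoters (13.8%) held a match, against 3.86% of all promoters and 2.95% of promoters of expressed genes. They are shown because they are the closest letters to a PPAR element in the set, with capitals for bases that equal the repeat. The match lies 83 bases before the start in Echs1 (promoter chr7:140116372-140116671, minus strand) and 77 bases before it in Etfa (promoter chr9:55512194-55512493, minus strand, match on the opposite strand of the gene). It lies 6 bases after the start in Slc25a20 (promoter chr9:108661886-108662185, plus strand) and 9 bases after it in Acox2 (promoter chr14:8258790-8259089, minus strand).
Echs1: AGGTCAcgGGTCc
Etfa: AGGgCAaAGGTaA
Slc25a20: AGGTgAaAGGTCg
Acox2: AGGaCAgAGGTgA

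These genes did not share a level, with Echs1 among the highest of the set and Acox2 the lowest. The GC box GGGCGG on either strand was in 72.4% of member promoters, against 35.7% of all promoters and 60.4% of those of expressed genes. The CCAAT box was in 41.4%, against 37.4% and 36.8%. Neither TATAAA nor the E-box CACGTG was in any of the 29, where they were in 13.6% and 7.15% of all promoters and in 7.25% and 9.67% of those of expressed genes. GC content, at a median of 60.7% in member promoters, 52.7% in all and 60.3% in those of expressed genes, moves with the GC box, and its part was not tested. A match of letters is not a binding site, and its absence says nothing of the factor.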

How the data were processed

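Per the labels, the libraries are strand-specific and were made from polyadenylated RNA of 1 group with 2 replicates. Per the notes deposited with the files, the authors quantified on mm10 with GENCODE M4. Aligner and quantifier: not given in the sources used here. The authors deposited, per gene and transcript, an expected count, TPM, FPKM, a posterior mean TPM and intervals, and for transcripts the percent of the gene's TPM. TPM was scaled over all rows, spike-ins included. Tables on mm9 were not used.

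Symbols matched 42462 of 43346 Ensembl identifiers without version. Positions and biotypes are from GENCODE M21 (mm10), and members' exons overlap other genes on the opposite strand in places, which the stranded protocol is meant to separate. Medians, quotients and counts were computed in Python 3.11.15 with pandas 2.3.3. Expected counts were rounded and scaled by TMM in edgeR 4.0.16 or by size factors in DESeq2 1.42.0, with no model fitted and no p-value. The rule for folds was run on counts simulated with counting error alone, with changes planted past both limits. It was applied there to shares of counts and not to TPM. That run cannot tell how the rule behaves under spread between samples. Copies of members were sought among GENCODE transcripts at 95% identity over 200 nt or more.

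All 33 members are named. For related lists the 3 highest genes are given, except that some genes of the ketone body and mitochondrial content lists are not reported here, and transcripts with 10 percent or more of the gene's TPM in both libraries are drawn on for the 6 members with the lowest coding share and those with several coding transcripts. Mlycd, Acacb, Bbox1, Prkab2, Prkaa1, Prkaa2, Ppara, Ppard, Ppargc1a and Ppargc1b were added as textbook members after their values were seen. The members, lists and limits were chosen with earlier results of these data known. The alternatives are given in the closing section. Floors and intervals cover counting or estimation error only, and depth was 47106979 and 54129473 gene counts.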

Additional observations from a re-analysis of the deposited data

How the results depend on the processing

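The number of expressed members, 32, was between 31 and 33 under each alternative tried. The number over 1.5-fold apart, 4, was 4 or 5, with different genes as described. Over 2-fold it was 1, except for 2 with FPKM. By TPM and posterior mean TPM that gene was Abcd3, with TMM and with DESeq2 size factors it was Cpt1b in place of Abcd3, and with FPKM both passed.

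The median of both libraries' mean TPM was 68.4 for mitochondrial and 26.5 for peroxisomal members. With protein-coding transcripts alone it was 56.2 and 23.1, and with mitochondrially encoded genes removed 75.3 and 29.1. Counting members of both organelles as peroxisomal gave 30.8. Each library alone gave 66.6 to 68.3 for mitochondrial and 24.9 to 25.9 for peroxisomal members.

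The median log2 quotient of mitochondrial members, -0.04, was -0.16 with FPKM, -0.16 with TMM and -0.18 with DESeq2 size factors. That of peroxisomal members, 0.05, was -0.069, -0.12 and -0.13, and -0.01 with members of both organelles added or with unexpressed Acox2 kept. Over all genes it was 0.12 by TPM, 0.01 with FPKM, -0.01 with TMM and -0.02 with DESeq2. With protein-coding transcripts the mitochondrial median was 0.04, so its sign depends on the transcripts counted. It lay below the median of all genes on that scale, 0.10.

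The median coding share was 94.3% of TPM, 89.3% with posterior mean TPM and 97.2% of fragments. No paired analysis was possible because there is a single group. Depth limits Acox2, with 71 and 73 fragments. The other limits are the number of libraries and the division of reads between close copies and overlapping transcripts.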

Other observations

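Markers of hepatocytes, cells rich in fatty acid oxidation, stood apart between the libraries. Their sum was 267.9 TPM (replicate 1) and 68.5 TPM (replicate 2), of which Cyp2e1, also known from fat cells, made up 211.0 and 57.3 TPM. Alb, the albumin gene, was at 31.6 and 3.54 TPM, Apoa2 at 15.2 and 1.15 TPM and Ttr at 5.0 and 0.56 TPM, while Serpina1c was at 4.39 and 5.63 TPM.

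Of the regulators, Nrip1, a corepressor of oxidation genes, was at 28.2 and 14.9 TPM, the widest TPM difference of any regulator with both values over 1 TPM. Among peroxisomal genes outside the members, Nudt7, a CoA diphosphatase, was at 19.2 and 35.0 TPM and Slc27a2, a very-long-chain acyl-CoA synthetase, at 8.11 and 15.4 TPM. Both were higher in replicate 2, opposite to Abcd3 and Acox3. Bdh1 of ketone body metabolism was at 28.3 and 16.0 TPM. These genes were chosen after their values were seen.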
